A study of Mus musculus with 6 samples.

Results

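The expressed small nucleolar RNAs (snoRNAs) of Neuro2A cells were examined: all genes that the deposited table classes as snoRNA and whose mean over the 6 libraries was at least 1 FPKM (fragments per kilobase of transcript, scaled to the mapped fragments of a library). This rule took 112 of the 1507 snoRNA genes in a table of 55385 genes. The other 1395 lay below it, and 986 of them read 0 in every library. By name, 17 of the 112 were box H/ACA snoRNAs (gene names starting with Snora, of 42 in the table), 31 were box C/D snoRNAs (Snord, of 98) and 64 carried other names (of 1367), mostly provisional Gm numbers. The members were thus chosen by their FPKM averaged over both groups, and no statement on their abundance is tested here. The last snoRNAs above the threshold were Gm24119 (1.01 FPKM) and Gm23615 (1.00 FPKM), and the first below it were Gm24500 and Gm22806 (both 0.993 FPKM).

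Neuro2A is an established mouse neuroblastoma line, labelled as a neuroblast of brain origin. All 6 samples were transfected with an siRNA at 100 nM: 3 libraries with si-NC, the comparison siRNA, and 3 with si-circCpsf6, an siRNA directed at the circular RNA circCpsf6. No time after transfection is given in the labels, and nothing in them says whether replicates were separate cultures. The p-values therefore rest on the spread between libraries, which may be technical. The libraries are titled mRNA-Seq, made from total RNA, and the kit the labels name is one for small RNA. Between 12671 and 13080 genes reached 1 FPKM in a library. The read total of each library could not be recovered from the table, so the number of fragments behind a value is unknown. Of 14 sympathoadrenal neuroblast markers, 12 had a mean of at least 1 FPKM, among them Hand2 (143 FPKM), while Nefm read at most 0.02 FPKM. Markers of other cell types were low, with summed levels of 0.44 to 8.99 FPKM per list and library, and Cd3e, Olig2 and Krt18 were at 0. Cpsf6, the gene that gives rise to circCpsf6, read 14.1, 14.5 and 15.2 FPKM with si-NC and 10.7, 15.1 and 14.5 FPKM with si-circCpsf6, and the table holds no row for the circle itself that could check the knockdown.

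SnoRNAs are short nuclear RNAs that guide chemical modification of other RNAs, above all ribosomal RNA, by base pairing. Box C/D snoRNAs bind fibrillarin, Nop56, Nop58 and Snu13 and direct methylation of the ribose, whereas box H/ACA snoRNAs bind dyskerin, Nhp2, Nop10 and Gar1 and direct conversion of uridine to pseudouridine. Most vertebrate snoRNAs are cut out of the introns of host genes, many of which encode ribosomal proteins or are noncoding RNAs with snoRNA host functions such as Gas5. The mature forms carry no poly(A) tail.

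The sequences of all 112 were found by gene identifier in the GENCODE M21 transcripts (build GRCm38), which also gave all positions below. The H/ACA snoRNAs printed first are those on which the comparison of siRNAs turned, Snora57 at chr19:8888538-8888685 on the minus strand and Gm25635 at chr10:9852019-9852149 on the minus strand, and the most abundant one, Snora31 at chr14:75847905-75848034 on the plus strand. Capitals mark an H box (ANANNA between 35% and 60% of the length, first match) and the ACA box (ACA followed by 2 or 3 bases at the 3′ end).
Snora57: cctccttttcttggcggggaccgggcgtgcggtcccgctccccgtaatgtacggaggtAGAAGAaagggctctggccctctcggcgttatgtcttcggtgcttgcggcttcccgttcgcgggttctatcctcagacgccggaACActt
Gm25635: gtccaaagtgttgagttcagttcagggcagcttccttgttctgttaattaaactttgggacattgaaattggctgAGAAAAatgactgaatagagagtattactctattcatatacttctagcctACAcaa
Snora31: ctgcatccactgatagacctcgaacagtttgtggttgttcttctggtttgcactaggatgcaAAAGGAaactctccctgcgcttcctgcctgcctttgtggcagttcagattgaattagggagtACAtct

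The C/D snoRNAs shown next had si-NC and si-circCpsf6 values that did not overlap, apart from Snord49a, which is the neighbour of Snord49b in the same host gene. Snord73a lies at chr3:86138791-86138858 (minus), Snord34 at chr7:45126601-45126670 (minus), Snord49b at chr11:62603079-62603150 (plus) and Snord49a at chr11:62603450-62603521 (plus). Capitals mark the C box (TGATG within the first 20 bases) and the D box (CTGA within the last 15 bases). The stretch directly before the D box, or before an internal copy of it, is where a C/D snoRNA pairs with its target.
Snord73a: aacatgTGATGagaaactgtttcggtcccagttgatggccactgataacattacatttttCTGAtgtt
Snord34: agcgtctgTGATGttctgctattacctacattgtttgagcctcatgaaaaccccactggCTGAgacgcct
Snord49b: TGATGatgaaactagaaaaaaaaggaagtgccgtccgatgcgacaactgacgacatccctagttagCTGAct
Snord49a: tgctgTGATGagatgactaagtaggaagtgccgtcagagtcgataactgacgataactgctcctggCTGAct

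The last set shows snoRNAs whose level turned on single libraries or on 1 host gene. Gm22357 at chr1:161036057-161036139, Snord47 at chr1:161038082-161038158 and Gm25789 at chr1:161038308-161038383 lie in Gas5 on the plus strand of chromosome 1. Snora33 at chr10:23785347-23785475 (minus) lies in Rps12 and Gm24299 at chr9:15314074-15314144 (plus) in Taf1d.
Gm22357: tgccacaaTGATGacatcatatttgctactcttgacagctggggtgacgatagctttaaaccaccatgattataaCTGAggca
Snord47: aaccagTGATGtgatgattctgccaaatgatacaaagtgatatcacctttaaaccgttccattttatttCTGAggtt
Gm25789: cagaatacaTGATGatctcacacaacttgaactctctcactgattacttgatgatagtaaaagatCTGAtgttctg
Snora33: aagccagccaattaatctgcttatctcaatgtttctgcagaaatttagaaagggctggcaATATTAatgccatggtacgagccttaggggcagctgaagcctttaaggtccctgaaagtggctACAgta
Gm24299: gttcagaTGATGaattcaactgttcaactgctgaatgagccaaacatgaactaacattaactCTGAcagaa

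The rule did not use these boxes, and they went with the names. Since the names already denote the class, this is no independent check of the grouping. Both C/D boxes were present in 26 of 31 Snord genes and in 0 of 17 Snora genes. An H box with an ACA box was counted only in genes without both C/D boxes. It was found in 16 of 17 Snora genes and 0 of 31 Snord genes, but 26 of these 31 were barred from that count. The ACA box, sought in every gene whatever its other boxes, stood in 16 of 17 Snora genes and 1 of 31 Snord genes. Of the 64 genes with other names, 32 carried C/D boxes, 17 carried H/ACA boxes, 2 carried the ACA box alone and 13 matched neither pattern. Searched in the same way on the given strand, 0.115% of 3474 microRNA and snRNA genes of the same length range held both C/D boxes and 1.35% held the H/ACA pair. Among the 1395 snoRNA genes below the threshold the shares were 20.7% and 36.0%. A match is a description of the letters only. The snoRNAs were 60 to 246 bases long, with a median of 81 bases for Snord genes and 132 bases for Snora genes.

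Length sets how much a value here can carry. In a gene as short as these, 1 FPKM corresponds to 0.06 to 0.246 FPM (median 0.09), where FPM are fragments per 1000000 mapped fragments, taken as FPKM times the length in kilobases. This assumes that the FPKM were scaled to the full GENCODE M21 length, which no source used here states. At their mean level the 112 snoRNAs had a median of 0.251 FPM, and 4 of them reached 1 FPM. The median within-group SD of log2(FPKM + 1) was 0.451 for the snoRNAs and 0.202 for the 10776 tested protein-coding genes, whose median transcript length was 3388 bases. The gap held at matched levels, where protein-coding genes of 1 to 2, 2 to 5 and 5 to 50 FPKM had medians of 0.220, 0.217 and 0.192. Correlations of log2(FPKM + 1) between libraries of a group, across genes, were 0.936 to 0.971 for all tested genes and 0.355 to 0.710 for the snoRNAs. These were not matched for level, and the snoRNAs cover a narrower range of levels, which by itself lowers a correlation.

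At this precision, 1 snoRNA was called higher and 1 lower with si-circCpsf6. The test was limma on log2(FPKM + 1) over the 12974 genes that reached 1 FPKM on average, with Benjamini-Hochberg adjustment over all of them and a threshold of 0.05. Over all tested genes 0.902% were called higher and 0.786% lower (1.69% either way), so 1 and 1 of 112 lie near the background. Both called snoRNAs passed the level filter through 1 group alone, as did 16 others (11 of the 18 through si-circCpsf6 and 7 through si-NC), and a gene that enters in that way has to differ. An unadjusted p under 0.05 was reached by 18 snoRNAs, 7 higher and 11 lower, where 20.3% of all tested genes reached it. The median log2 fold change was -0.06 over the snoRNAs and -0.02 over all tested genes. It was -0.12 for Snora genes (6 above and 11 below 0), -0.06 for Snord genes (12 and 19) and -0.01 for the others (32 and 32), where median centring of the libraries turned the last value to 0.01. Leaving out 1 library moved these medians further, to between -0.31 and -0.05 for Snora genes, between -0.31 and 0.0097 for Snord genes (si-NC replicates 2 and 3 left out), and between -0.15 and 0.07 (without si-circCpsf6 replicates 3 and 2) for the others.

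**Figure D1:**
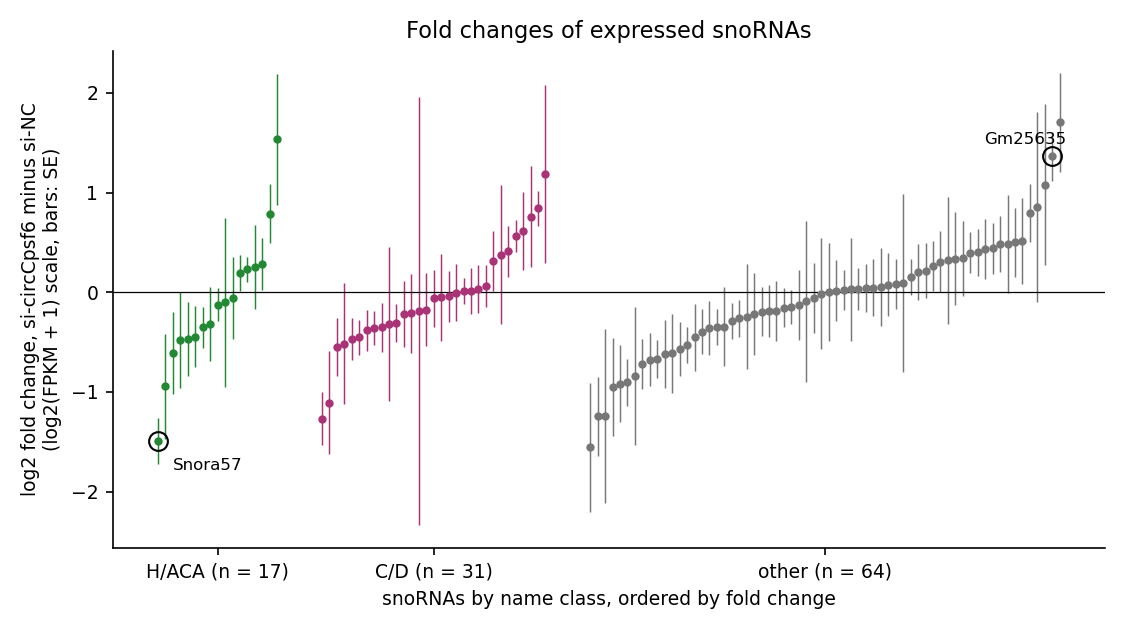
Log2 fold change (si-circCpsf6 minus si-NC, log2(FPKM + 1) scale, vertical axis) of each of the 112 snoRNAs, ordered within the 3 name classes along the horizontal axis; bars are standard errors from limma. Circles mark the 2 called snoRNAs, Snora57 (-1.49) and Gm25635 (1.37), and the long bar among the C/D snoRNAs is Snord47, with a standard error of 2.15.

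Snora57, which guides a pseudouridine of the small subunit rRNA, read 2.65, 2.97 and 3.03 FPKM with si-NC and 0.76, 0.49 and 0 FPKM with si-circCpsf6. Every si-NC library was thus above every si-circCpsf6 library, with means of 2.88 ± 0.204 and 0.417 ± 0.385 FPKM (SD, n = 3 each). This gave a log2 fold change of -1.49 (SE 0.231, limma adjusted p = 0.0332), on a scale that understates changes of low genes. In fragments the levels were small, at 0.392 to 0.448 FPM with si-NC and at most 0.112 FPM with si-circCpsf6. Snora57 has no host on its own strand in the annotation. It lies within an intron of Lbhd1 on the opposite strand, which read 4.77, 5.25 and 5.96 FPKM with si-NC and 2.13, 3.62 and 4.67 FPKM with si-circCpsf6 (log2 fold change -0.54, adjusted p = 0.237). No source used here says whether counting used the strand, so reads of Snora57 and Lbhd1 cannot be told apart. A near copy, Gm26132, is 95.9% identical over 148 bases and had a mean of 0.17 FPKM. The call was lost in 5 of the 6 fits that left out 1 library (adjusted p = 0.0682 to 0.155) and held without si-circCpsf6 replicate 1. It was also lost with a pseudocount of 0.1 and with no filter on low values. The authors' deposited q-value called no snoRNA at all, so it says little about Snora57.

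Gm25635, an unnamed snoRNA with H/ACA boxes, read 0.15, 0 and 0.34 FPKM with si-NC and 2.74, 2.22 and 1.19 FPKM with si-circCpsf6. All 3 si-circCpsf6 libraries were above all si-NC libraries, with a log2 fold change of 1.37 (SE 0.245, limma adjusted p = 0.0452). At its highest it had 0.359 FPM. It lies in an intron of Stxbp5, which encodes tomosyn, a protein that binds syntaxin and restrains vesicle fusion. Stxbp5 itself read 3.23, 3.75 and 3.48 FPKM with si-NC and 4.34, 4.75 and 4.93 FPKM with si-circCpsf6 (log2 fold change 0.34, adjusted p = 0.203). Host and snoRNA thus both had groups that did not overlap, as had 26.9% of all tested genes, but the host did not pass the test. Gm25635 passed the level filter only through si-circCpsf6, so part of its difference was set by the filter. A copy that is 95.3% identical, Gm22247, was at 0. The call was lost in all 6 fits that left out 1 library, with adjusted p from 0.0687 to 0.155. It was also lost with pseudocounts of 0.1 and 5 and with no filter on low values (0.0679, 0.0537 and 0.127). The authors' deposited q-value, which called no snoRNA, says little about Gm25635.

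Among the snoRNAs that missed the threshold, the smallest adjusted p-values belonged to Snord49b and Snord73a. Snord49b, a guide for methylation of the large subunit rRNA, read 5.83, 3.7 and 3.91 FPKM with si-NC and 1.13, 0.68 and 2.16 FPKM with si-circCpsf6 (log2 fold change -1.27, SE 0.264, adjusted p = 0.0608). Its groups did not overlap. Snord49a and Snord65 come from the same host, the noncoding RNA 2410006H16Rik, and overlapped between groups. Snord49a read 5.76, 5.53 and 8.6 FPKM with si-NC and 4.96, 5.97 and 4.36 FPKM with si-circCpsf6 (log2 fold change -0.31, adjusted p = 0.416), and the value for Snord65 was -0.47 (adjusted p = 0.257). The host was far higher than its snoRNAs, at 342, 350 and 278 FPKM with si-NC and 698, 255 and 289 FPKM with si-circCpsf6 (log2 fold change 0.21, adjusted p = 0.793), and si-circCpsf6 replicate 1 stood above the rest. The differences between Snord49b and its neighbours were not tested.

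Snord73a, a C/D snoRNA in an intron of the ribosomal protein gene Rps3a1, read 0.98, 0.92 and 0.77 FPKM with si-NC and 2.33, 1.91 and 3.01 FPKM with si-circCpsf6 (log2 fold change 0.84, SE 0.176, adjusted p = 0.0610). It passed the level filter only through si-circCpsf6. Snord34, one of 3 snoRNAs in introns of Rpl13a, read 2.5, 2.95 and 3.02 FPKM with si-NC and 4.03, 4.37 and 5.68 FPKM with si-circCpsf6 (log2 fold change 0.57, SE 0.159, adjusted p = 0.111). The other Rpl13a snoRNAs, Snord32a and Snord35a, had log2 fold changes of 0.01 and -0.06, and Rpl13a itself 0.11 (adjusted p = 0.822). Snord34 was thus the one member of its host with groups that did not overlap, although the difference from the other two was not tested.

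In all, 17 snoRNAs had values that did not overlap between groups, 7 higher and 10 lower, where 12.8% of all tested genes were apart and higher, 14.0% apart and lower and 26.9% apart in either direction. The 17 of 112 therefore lie below the background share. The 7 higher ones were Snora31, Snora34, Snord34, Snord73a, Gm22890, Gm23711 and Gm25635, and the 10 lower ones Snora57, Snord49b, Snord66, Snord104, Gm22270, Gm23201, Gm24201, Gm24313, Gm24452 and Gm25789. Among these, Snord73a, Gm22890 and Gm25635 passed the level filter only through si-circCpsf6, and Snora57 and Gm24313 only through si-NC. Part of their difference was thus set by the filter. Snora31, in an intron of Tpt1, was the most abundant Snora gene and among the most even, at 7.57, 8.88 and 8.76 FPKM with si-NC and 10.7, 9.88 and 9.51 FPKM with si-circCpsf6 (log2 fold change 0.23, adjusted p = 0.353). Snord104, which has no annotated host on its strand, read 18.1, 14.3 and 13.7 FPKM with si-NC and 13.7, 9.67 and 9.77 FPKM with si-circCpsf6 (-0.45, adjusted p = 0.209), and its groups were parted by a gap of less than 0.1 FPKM. Gm22890 had the largest fold change of all 112 and 1 si-circCpsf6 library far above the other two, with 0.2, 0 and 0.23 FPKM with si-NC and 7.98, 1.32 and 1.45 FPKM with si-circCpsf6 (1.70, SE 0.493, adjusted p = 0.119; 1.07 and 0.0698 without si-circCpsf6 replicate 1). At the other end, Gm24452 in Snhg1 read 11, 8.93 and 11.7 FPKM with si-NC and 7.03, 5.31 and 0.17 FPKM with si-circCpsf6 (-1.56, SE 0.651, adjusted p = 0.236; -0.69 without si-circCpsf6 replicate 3). The H/ACA-type Gm24313 in an intron of Tbrg4 (-0.90, adjusted p = 0.0981) and Gm22270 in an intron of Rpl5 (-0.67, adjusted p = 0.113) were smaller but more even. Gm22270 is 96.9% identical to Gm26387, in the same host, whose log2 fold change was 0.22. Gm23711 (0.80, adjusted p = 0.181) and Gm24091 (-0.06) are identical over all 83 bases, so how the authors' counting divided their reads is not known.

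**Figure D2:**
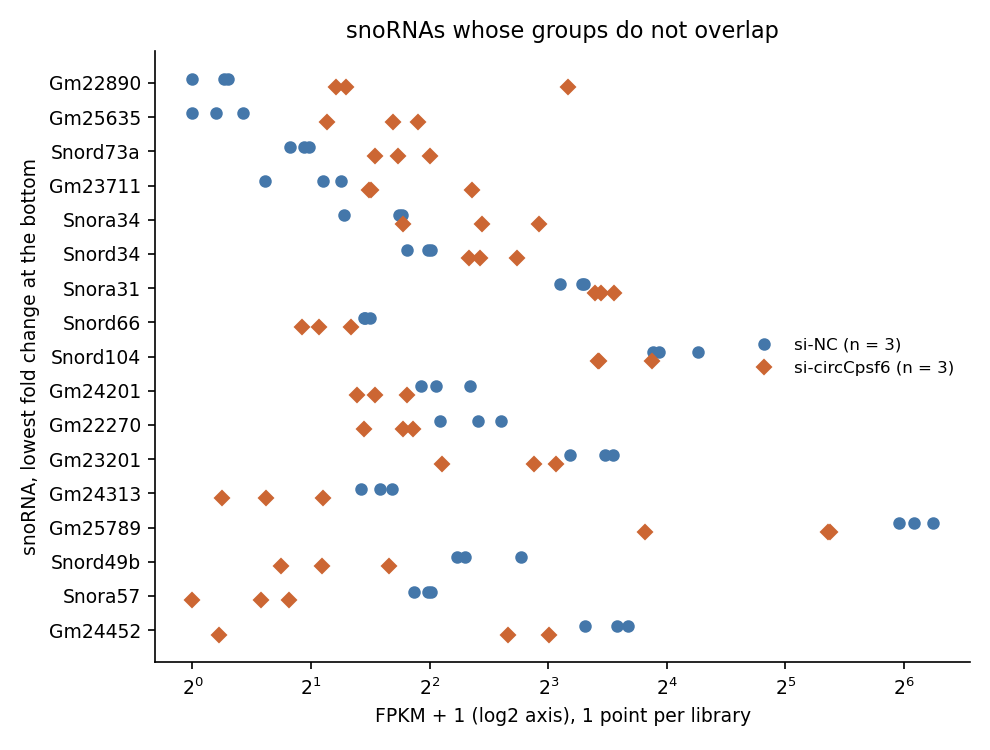
FPKM + 1 in each library (log2 axis, 1 point per library, n = 3 per group) of the 17 snoRNAs whose si-NC and si-circCpsf6 values do not overlap, ordered by fold change with the lowest at the bottom. Gm22890 and Gm24452 at the 2 ends each have 1 si-circCpsf6 library far from the other two (7.98 and 0.17 FPKM), whereas Snord73a and Snord34 lie close together within each group.

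Gas5, a noncoding RNA known as a growth arrest transcript, held more expressed snoRNAs than any other host. In order along chr1:161035850-161038383, the 7 were Gm22489, Gm22357, Gm23212, Gm50452, Snord80, Snord47 and Gm25789, and all carried both C/D boxes. Gas5 itself read 8.46, 7.33 and 9.41 FPKM with si-NC and 4, 6.16 and 4.31 FPKM with si-circCpsf6 (log2 fold change -0.70, SE 0.177, adjusted p = 0.0903). Its groups did not overlap, but it did not pass the test. Gm25789, the most abundant of the 112, read 66.9, 61.2 and 74.7 FPKM with si-NC and 13.1, 40.4 and 40 FPKM with si-circCpsf6. Its means were 67.6 ± 6.76 and 31.2 ± 15.6 FPKM (SD, n = 3 each), with a log2 fold change of -1.25 (SE 0.395, adjusted p = 0.142). Without si-circCpsf6 replicate 1 the value was -0.73 (adjusted p = 0.0610). It was the one snoRNA that the authors' deposited table flagged as significant, with a p-value of 0.02 and a q-value of 0.19, and 4.75% of all tested genes carry that flag.

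The other Gas5 snoRNAs did not share one pattern. Gm22357 read 21.9, 33.7 and 26.9 FPKM with si-NC and 12.1, 25.6 and 18.4 FPKM with si-circCpsf6 (-0.57, adjusted p = 0.289; -0.31 without si-circCpsf6 replicate 1). Gm22489 read 6.3, 4.65 and 11.3 FPKM with si-NC and 9.29, 12.7 and 7.91 FPKM with si-circCpsf6 (0.43, adjusted p = 0.461). The remaining 4 jumped between libraries of the same group. Snord47 was 105 FPKM in si-NC replicate 1 and 62.8 FPKM in si-circCpsf6 replicate 3, and at most 0.12 FPKM in the other 4 libraries. Gm23212 was 12.6 FPKM in si-NC replicate 3 and at most 0.19 FPKM elsewhere. Snord80 fell to 0.37 FPKM in si-circCpsf6 replicate 1 alone, against 2.94 to 8.12 FPKM in the other 5 libraries. In Gm50452, 3 libraries read 3.2 to 4.78 FPKM and 3 read 0.14 to 0.23 FPKM. Summed over the 7, the level was 208, 106 and 137 FPKM with si-NC and 35.3, 86 and 133 FPKM with si-circCpsf6. The groups thus overlapped, but this rested on Snord47 alone. It gave 105 FPKM of the sum in si-NC replicate 1 and 62.8 FPKM of that in si-circCpsf6 replicate 3.

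**Figure D3:**
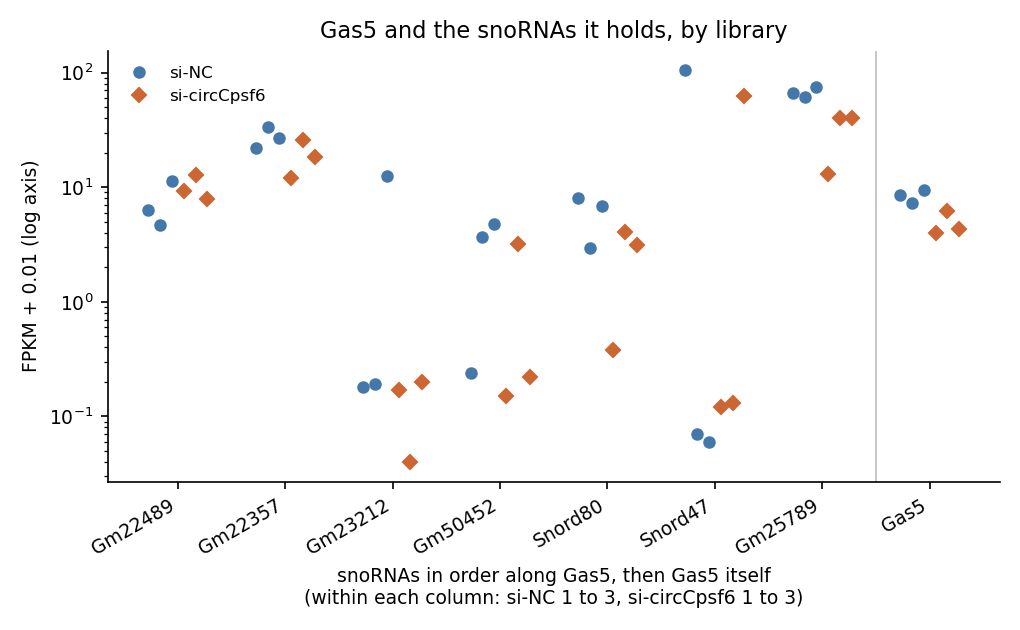
FPKM + 0.01 (log axis) of the 7 snoRNAs in order along Gas5 and of Gas5 itself, right of the grey line; within a column the points are si-NC replicates 1 to 3 and si-circCpsf6 replicates 1 to 3. Gm25789 and Gas5 keep their groups apart, while Snord47 ranges from 0.05 to 105 FPKM within si-NC.

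Jumps of this kind were common among the snoRNAs. A rule chosen after the values were seen counted genes that read under 0.5 FPKM in 1 library and at least 2 FPKM in another of the same group. It took 30 of the 112 snoRNAs (26.8%) and 0.612% of the tested protein-coding genes, which were not matched for level. At 1 to 2 FPKM the shares were 38.3% of the snoRNAs and 3.28% of the protein-coding genes. They were 23.3% and 0.886% at 2 to 5 FPKM, and 9.09% and 0.108% at 5 to 50 FPKM. Snord12, in the noncoding host Zfas1, read 11.6 FPKM in si-circCpsf6 replicate 2 and at most 0.05 FPKM in the other 5 libraries. Gm26247 in 2410002F23Rik read 8.46 FPKM in si-circCpsf6 replicate 3 and 0 in the other 5. Snora7a in Rpl32 read 6.46 and 5.24 FPKM in si-circCpsf6 replicates 1 and 3 and 0.11 to 0.37 FPKM elsewhere (log2 fold change 1.54, adjusted p = 0.244). Without si-circCpsf6 replicate 2, Snora7a was called higher (2.41, limma adjusted p = 0.0181). That fit drops its low si-circCpsf6 library, at 0.11 FPKM. Snora7a also passed the level filter only through si-circCpsf6, so the call is no independent support for a rise. Snora33 in Rps12 (5.76 and 4.9 FPKM) and Gm24299 in Taf1d (5.56 and 4.16 FPKM) were high in replicate 2 of both groups and at most 0.23 FPKM in the other 4 libraries. The high values were spread over all 6 libraries, each of which had 9 to 17 of the 30 snoRNAs at 2 FPKM or more.

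The jumps went with the place of the snoRNA in its host. By the annotation, 43 snoRNAs overlapped an exon of some transcript of a host on the same strand, 58 lay in introns alone and 11 had no host on their strand. Of those overlapping an exon, 22 of 43 jumped (51.2%), against 7 of 58 in introns (12.1%) and 1 of 11 without a host. The median within-group SD of log2(FPKM + 1) was 0.789, 0.377 and 0.409 in these sets. At matched levels the exon set was also the wider, with 0.991 against 0.412 at 1 to 2 FPKM, 0.823 against 0.377 at 2 to 5 FPKM and 0.462 against 0.294 at 5 to 50 FPKM. In 13 snoRNAs, all of which jumped, a value above 0 stood for less than 0.01 FPM, and 11 of these overlapped an exon. If FPKM were scaled to the full length, a library would need over 100000000 mapped fragments for such a value to be 1 whole fragment. For Snord47 the value in si-NC replicate 3 stood for 0.00385 FPM. No source used here says how fragments were shared between a snoRNA and the host transcript over it, so mature snoRNA and host RNA cannot be told apart in these values.

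**Figure D4:**
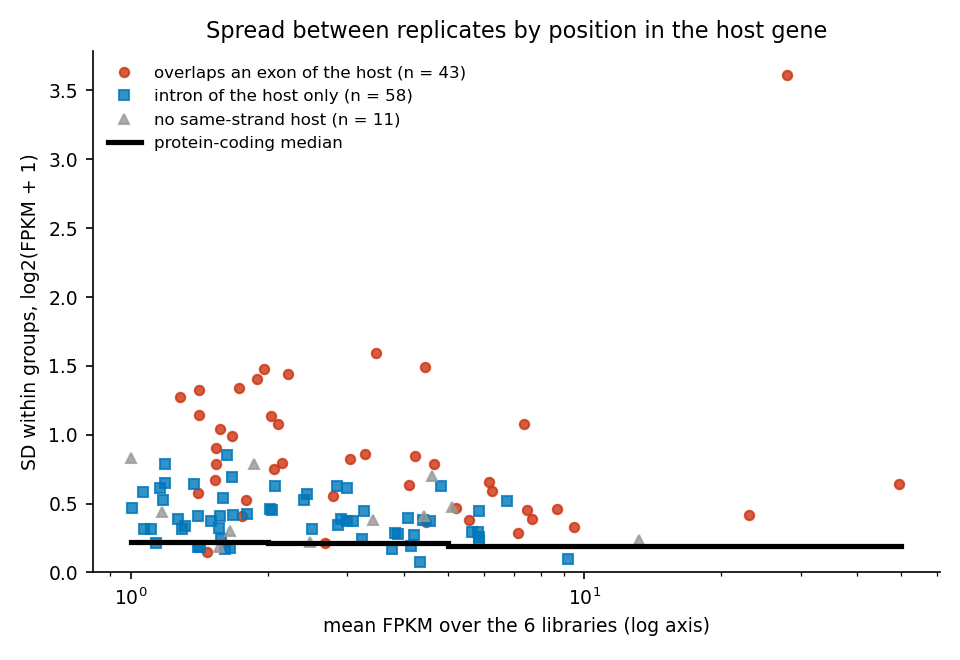
Within-group SD of log2(FPKM + 1) against mean FPKM over the 6 libraries (log axis) for each snoRNA, by its place in the host gene; black lines are the medians of protein-coding genes of 1 to 2, 2 to 5 and 5 to 50 FPKM. Most snoRNAs overlapping an exon lie well above the lines, and the top point is Snord47.

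The sign of the fold changes is given by set as a description. The 43 snoRNAs overlapping an exon had a median log2 fold change of -0.35, with 14 above and 29 below 0, and the 58 in introns a median of 0.01, with 30 above and 28 below. Without si-circCpsf6 replicate 1 the exon median was -0.15, and without si-NC replicate 1 it was -0.18. Neither called snoRNA overlapped an exon of a host on its strand. Without the 30 that jumped, the summed level of the other 82 snoRNAs was 382, 375 and 416 FPKM with si-NC and 289, 312 and 356 FPKM with si-circCpsf6. These groups did not overlap, but without Gm25789 they did, at 315, 313 and 341 FPKM with si-NC and 276, 272 and 316 FPKM with si-circCpsf6. Over all 112 the groups also overlapped, at 565, 431 and 477 FPKM with si-NC and 339, 382 and 481 FPKM with si-circCpsf6. Without Snord47 they did not overlap, at 460, 431 and 477 FPKM with si-NC and 339, 382 and 418 FPKM with si-circCpsf6. Whether these sums overlapped thus turned on single snoRNAs. Gm25789 and Gm22357 together held 7.44% to 22.0% of the sum over all 112. The snoRNAs made up 0.0975% to 0.166% of all FPKM in a library.

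The hosts were 67 genes, 22 of which encode ribosomal proteins and hold 29 of the snoRNAs. No host passed the test, where 1.69% of all tested genes did. An unadjusted p under 0.05 in limma was reached by 9 of the 67, fewer than the 20.3% of all tested genes, and their median log2 fold change was -0.06. Across the 101 pairs of a snoRNA and its host, the fold changes had a Pearson correlation of 0.19 and a Spearman correlation of 0.18. The 2 values had the same sign in 62 pairs (29 of 43 in exons and 33 of 58 in introns). The pairs share libraries, and several share a host, so these are descriptions. Besides Gas5, the hosts with 3 expressed snoRNAs were 2410006H16Rik, Eif4a2, Nop58, Rpl13a and Rpl17. The host with the lowest fold change was Tsr1, a ribosome maturation factor, at 17.4, 19.8 and 21.3 FPKM with si-NC and 6.97, 11.9 and 12.3 FPKM with si-circCpsf6 (-0.88, adjusted p = 0.0816). Its snoRNAs Snord91a and Gm22771 had log2 fold changes of -0.17 and -0.34, with adjusted p = 0.831 and 0.677.

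**Figure D5:**
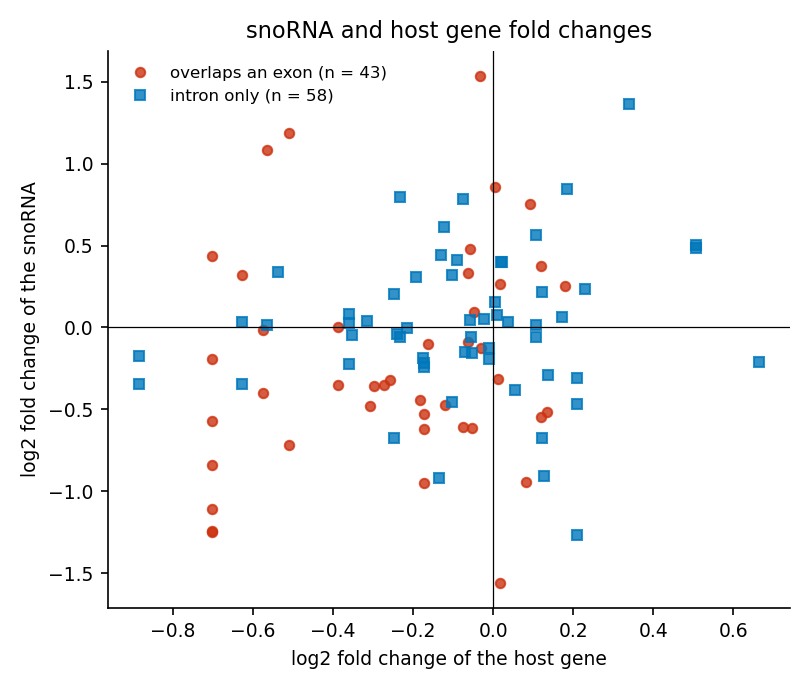
Log2 fold change of each snoRNA (vertical axis) against that of its host gene (horizontal axis), both si-circCpsf6 minus si-NC on the log2(FPKM + 1) scale, for 43 snoRNAs overlapping a host exon and 58 in introns alone. The points form no clear line (Pearson 0.19), and the column at -0.70 holds the 7 snoRNAs of Gas5, which range from -1.25 to 0.43.

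The genes of the snoRNA proteins formed a list of 23 tested members. None passed the test, where 1.69% of all tested genes did, and 7 reached an unadjusted p under 0.05 in limma, 6 of them lower, beside 20.3% of all tested genes. Values lay below 0 in 21 of 23, beside 6846 of 12974 tested genes, with a median log2 fold change of -0.29, and the 21 to 2 split was also found with median centring, quantile normalization and both other pseudocounts. The 4 core proteins of box C/D particles had a median of -0.38. Among them Nop58, which is also the host of Gm26287, Gm26293 and Snord70, read 14.4, 11.4 and 14.1 FPKM with si-NC and 6.04, 9.1 and 9.96 FPKM with si-circCpsf6 (-0.63, adjusted p = 0.135). Fbl, the methyltransferase fibrillarin, had a value of -0.35 (adjusted p = 0.209). The 4 core proteins of H/ACA particles had a median of -0.30, with Dkc1, the pseudouridine synthase dyskerin, at -0.29 (adjusted p = 0.538). Of 15 assembly and transport factors 13 were below 0. The smallest p belonged to Tcof1, the nucleolar protein treacle, at 16.2, 13.2 and 13.9 FPKM with si-NC and 8.33, 10.5 and 10.1 FPKM with si-circCpsf6 (-0.54, adjusted p = 0.0999). Si-circCpsf6 replicate 1 was the lowest of the 6 libraries for 19 of the 23 genes, among them all 8 core proteins. Without it the list's median was -0.11, with 21 of 23 below 0. The other fits without 1 library had 18 (without si-NC replicate 1) to 21 of 23 below 0, with medians of -0.39 to -0.24.

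Other short RNAs without a poly(A) tail were set beside the snoRNAs. Of the listed ones, with all scaRNA and snRNA genes, 30 were tested. None was called and 1 had an unadjusted p under 0.05 in limma, beside 1.69% and 20.3% of all tested genes. The median log2 fold change was 0.03 with a median within-group SD of 0.576. The 30 may not be separate measurements. The snRNA genes Gm26244 and Gm24924, both of 164 bases, each read 0.3, 0.83 and 0.97 FPKM in si-NC replicates 1 and 3 and si-circCpsf6 replicate 3. Rn7sk, which holds back the elongation factor P-TEFb, read 28.9, 52 and 30.3 FPKM with si-NC and 54.7, 37.8 and 29.6 FPKM with si-circCpsf6 (0.14, adjusted p = 0.829). Rmrp, the RNA of the RNase MRP that cuts pre-rRNA, read 3.74, 6.8 and 3.92 FPKM with si-NC and 13 FPKM in si-circCpsf6 replicate 1, with 5.31 and 5.73 FPKM in the others (0.57, adjusted p = 0.395). The jumping pattern took 26.7% of these 30 genes, beside 26.8% of the snoRNAs and 16.9% of the 295 other tested genes under 300 bases.

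The authors' deposited table gave a p-value of 1.00 to 101 of the 112 snoRNAs (90.2%). It gave that value to 0.575% of the tested protein-coding genes and to 59.3% of the other tested genes under 300 bases. The 11 snoRNAs with a p-value below 1 had 0.638 to 3.75 FPM at their mean, and the 101 others 0.0651 to 0.811. Snora57 and Gm25635 were among those given a p-value of 1.00, and no snoRNA had a q-value under 0.05 in the authors' deposited table.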

How the data were processed

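RNA from 6 Neuro2A libraries (3 si-NC, 3 si-circCpsf6, groups and replicate numbers from the sample titles) was analysed from 1 table. The authors deposited FPKM per gene and library, named so in the file headers and given with 2 decimals. The authors' fold change as a ratio, its log2, and their p-values and q-values stand in the same deposited table. Which program made the FPKM, which test was used, the read totals and the strand setting were not given in the sources used here. Bowtie 0.12.2 and mm9 and mm8 appear in the submitters' processing notes, with no step named. Whole reads could not be recovered, since no more than 27.1% of low FPKM fell within 0.1 of a whole multiple of the best step. Depth per library is therefore unknown, and no interval for counting error is given.

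The members and lists were chosen with earlier results of these data known. The 12974 genes that averaged 1 FPKM or more were tested on log2(FPKM + 1) with limma 3.58.1 (R 4.3.3), using an intensity trend, all 6 libraries and Benjamini-Hochberg adjustment over all genes. The fit was tested on simulated data. With 3 against 3 libraries the smallest exact permutation p is 0.1. Named snoRNAs are those called, the 6 largest changes each way, the 4 most abundant per class, those with groups apart, those nearest the threshold, and their hosts. Others are named as neighbours, copies or examples of jumps between libraries, chosen after their values were seen. Identifiers were matched to GENCODE M21 (GRCm38) for position, length, host and sequence; FPM are FPKM times that length in kilobases. Copies were sought with BLAST+ 2.17.0 (at least 95% identity over 80% of the length). Tables and figures used Python 3.11.15, pandas 2.3.3 and matplotlib 3.10.9. Alternatives were median centring, quantile normalization, pseudocounts of 0.1 and 5, other filters, no trend, the replicate number as a block, other genes under 300 bases left out, the authors' q-value and leaving out each library. Some items are not reported here.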

Additional observations from a re-analysis of the deposited data

How the results depend on the processing

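The 1 higher and 1 lower call were kept with median centring, quantile normalization, a filter of at least 1 FPKM in 3 libraries, limma without the trend, and other genes under 300 bases left out. Both counts fell to 0 with a pseudocount of 0.1, with no filter on low values, with a mean of at least 5 FPKM (22 snoRNAs, neither called one among them, median log2 fold change -0.34 in place of -0.06), and with the authors' q-value, and with a pseudocount of 5 the higher count was 0. With the replicate number as a block both were 0, and 11 of all tested genes were called in place of 219; the numbers are not known to pair the libraries. Same-numbered libraries correlated at 0.103, 0.129 and 0.084 after removal of group means, each best with its own number, which is a hint from the data and not the design. With no filter, 13 of all tested genes were called. Leaving out 1 library gave 0 to 1 higher and 0 to 1 lower, 3 to 87 calls over all genes and medians of -0.16 to -0.03. The 1 higher call without si-circCpsf6 replicate 2 was Snora7a (2.41, limma adjusted p = 0.0181), not Gm25635. Snora7a passed the level filter only through si-circCpsf6, and the library left out was its low one. The median was 0.016 over the 64 snoRNAs that overlap no exon of another gene and, in an alternative chosen after seeing the data, -0.13 over the 82 that did not jump between libraries. The cause of these changes was not tested. Signs that turned belonged to uncalled snoRNAs. Gm23615 (0.03) was -0.0081 with quantile normalization, -0.023 with a pseudocount of 5 and -0.25 in the authors' deposited table, and ranged from -0.35 to 0.60 without 1 library. Without 1 library Gm24119 (0.07) ranged from -0.19 to 0.33, Snora52 (-0.32) from -0.63 to 0.015, Snord12 (1.18) from -0.018 to 1.79, Snord58b (-0.22) from -0.57 to 0.0097 and Snord47 (-0.19) from -2.14 to 2.03. Snord47 was 0.069 with a pseudocount of 0.1. Unknown depth limits the precision of all values below a few FPKM.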
